A study of Mus musculus with 6 samples.

Results

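Aldh1a2 is described here with 8 other genes of the pathway that makes, removes, binds and reads retinoic acid, in the stria vascularis of mice with and without the anion exchanger pendrin (Slc26a4). The set holds 9 genes: Rdh10, Aldh1a1, Aldh1a2 and Aldh1a3, which make retinaldehyde or retinoic acid, Dhrs3 and Cyp26b1, which limit or remove them, the binding proteins Crabp1 and Crabp2, and the receptor Rarb. Aldh1a2 was chosen by its signal, which was lower in every knockout array, so its difference is a description and carries no test. The other 8 genes were taken for their place in the pathway, with earlier results of these data known. Among all 18193 genes named on the array, these 9 were read by 12 of its 45101 probe sets, a probe set being a group of short probes that together measure a transcript.

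The samples were 3 arrays of Slc26a4 heterozygous mice, numbered 1, 3 and 5 in the labels, and 3 arrays of Slc26a4 knockout mice, numbered 2, 4 and 6. All were prepared from total RNA of stria vascularis dissected from the cochlea at postnatal day 10, before hearing begins in mice. The RNA was amplified and labelled before hybridisation. The heterozygous controls carry 1 intact copy of Slc26a4, and no wild-type group was analysed here. Neither allele, strain and sex nor the number of animals behind an array is stated in the labels. The p-values therefore measure spread among arrays, which may be technical.

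The stria vascularis is the secretory epithelium of the cochlear lateral wall, which pumps potassium into endolymph and generates the endocochlear potential. Retinoic acid is made from vitamin A by the oxidation of retinol to retinaldehyde and of retinaldehyde to retinoic acid, and it acts through nuclear receptors (RAR) that bind DNA with retinoid X receptors (RXR). It is needed for the patterning of the embryonic ear. Its level in a tissue is set by the balance between the enzymes that make it and the CYP26 enzymes that break it down, and several of these genes are themselves induced by it.

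Before the pathway, the labels and the dissection were checked. The Slc26a4 signal was 221, 248 and 1006 in the heterozygous arrays and 75.5, 106 and 154 in the knockout arrays, without overlap. Whether its probes lie within the altered part of the gene is not stated in the labels. The strial genes Kcnq1, Kcne1, Kcnj10, Tyr and Cldn11, which mark marginal, intermediate and basal cells, were bright on all arrays, with Kcnq1 between 5326 and 6341 and Cldn11 between 7412 and 8690 by their brightest probe sets. Knockout array 4 stood apart, with a mean correlation of 0.963 with the other arrays against 0.979 to 0.982 for the rest, and a summed endothelial marker signal of 2942 against 6240 to 10754. Knockout array 6 alone carried high signal for the X-inactivation RNA Xist, at 4919 against at most 83.1 elsewhere by the brightest of 3 probe sets, and lacked that of the Y-linked gene Eif2s3y, at 6.98 against at least 2835 elsewhere by the brighter of 2. Both sex-linked genes were singled out after their values were seen. Differences are knockout minus heterozygous means of log2(signal + 16), and a probe set was tested where its mean signal over all arrays reached the 40th percentile of all probe sets, 46.3. Across the 27022 probe sets tested with limma, 1 passed an adjusted p of 0.05 (0.00370%), a probe set of the growth factor Fgf18. Slc26a4 itself, with a log2 difference of -1.69 ± 0.50 (SE; limma, adjusted p = 0.371), did not pass.

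Aldh1a2 encodes a retinaldehyde dehydrogenase, the enzyme that carries out the last step of retinoic acid synthesis and makes most retinoic acid in the early embryo. It was bright in every array and lower in all 3 knockout arrays, with a mean signal 0.607 times that of the heterozygous arrays. By its single probe set, the signal was 4974, 5072 and 4444 in heterozygous arrays 1, 3 and 5 and 3108, 2629 and 3056 in knockout arrays 2, 4 and 6. The groups did not overlap, which follows from how Aldh1a2 was chosen. Of all 12421 genes tested, 7.04% were lower in the knockout arrays without overlap, by their brightest probe set. For Aldh1a2 the lowest heterozygous value and the highest knockout value were 1336 apart, and values within a group ranged over 628 and 479. The means were 4830.0 ± 338 (SD, n = 3) and 2931 ± 263 (SD, n = 3), a coefficient of variation of 7.0% and 8.96%. On the log2 scale the difference was -0.72, that is 39.2% lower. It was between -0.78, without heterozygous array 5, and -0.64, without knockout array 4, when single arrays were left out. The sign could not turn there, since Aldh1a2 was chosen for lower signal in every knockout array. Without knockout array 6 the difference was -0.75. In whole tissue, fewer cells of a type and less RNA per cell cannot be told apart.

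**Figure D1:**
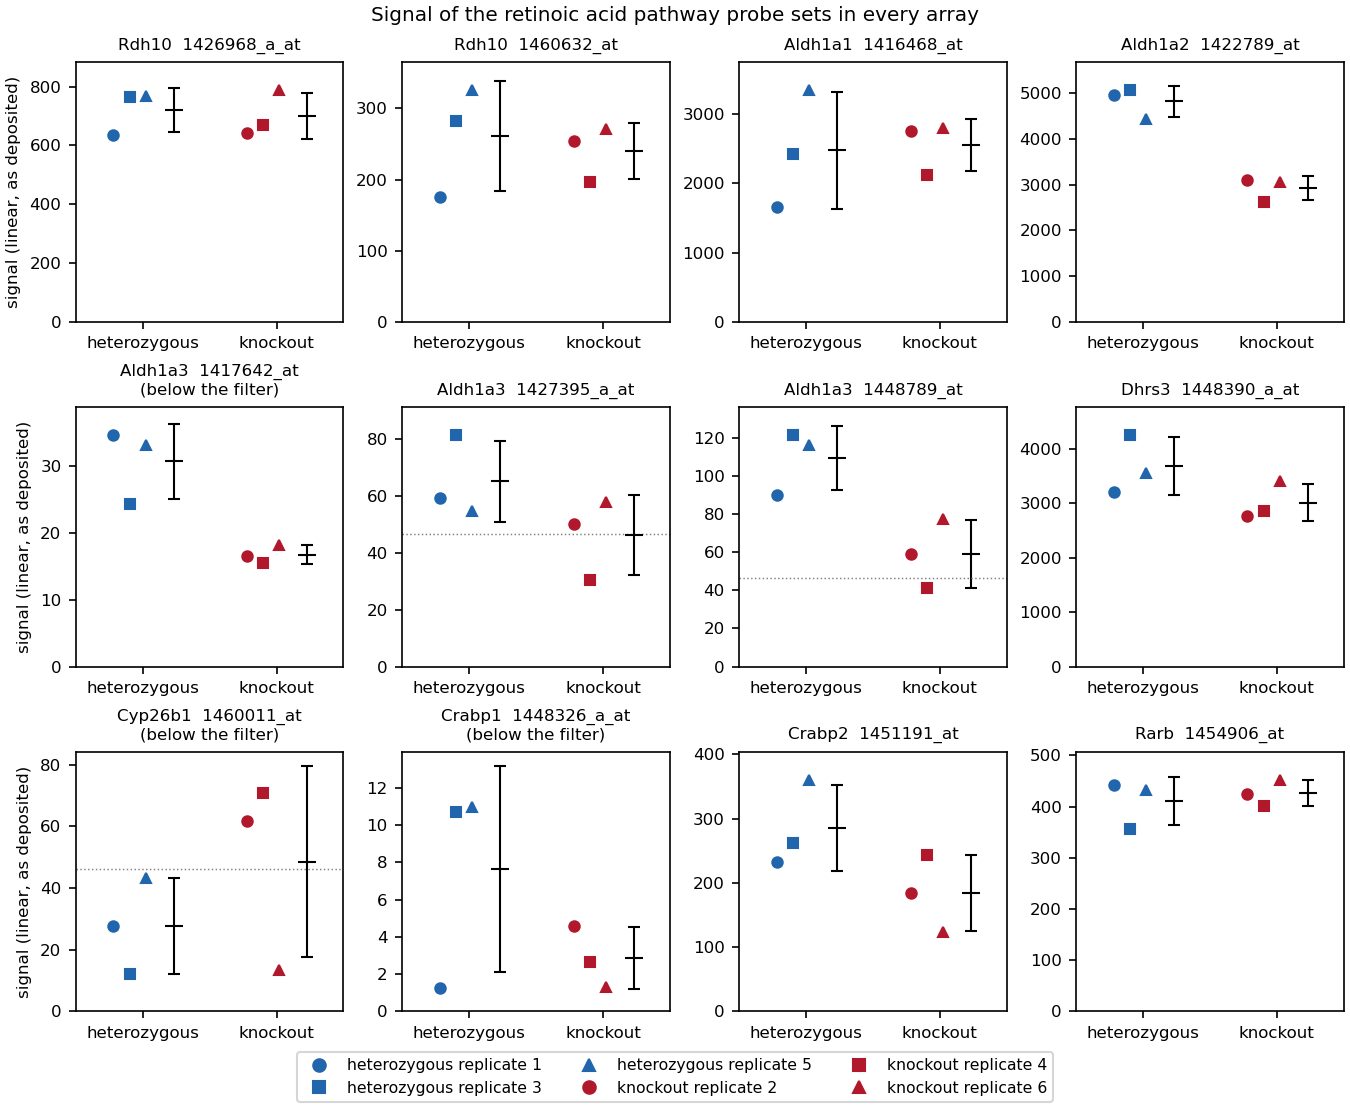
Signal of the 12 probe sets of the 9 genes in each array, on a linear scale that differs between panels. Points are arrays, with a marker shape for each replicate number, bars are the group mean with SD (n = 3), the dotted line is the filter, and probe sets too dim to be tested are marked. The Aldh1a2 points form 2 separate bands, those of the brightest Aldh1a3 probe set lie close but apart, and those of Aldh1a1, Rdh10 and Rarb overlap.

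The promoter of Aldh1a2 is shown because it is the start region of the gene chosen for this description, and that of Rarb because a response element of the receptor lies in it. Sequences are from RefSeq (GRCm38.p6), 250 bases before to 50 bases after the transcript start, 5′ to 3′ on the strand of the gene. They were searched on both strands for 2 direct copies of the core site AGGTCA, in which the first base could also be G and the third also T, spaced by 5 bases, the arrangement that RAR and RXR bind together. Capitals mark such a pair. Aldh1a2 lies at chr9:71215539-71215838 on the + strand, Rarb at chr14:16575427-16575726 on the - strand.
Aldh1a2: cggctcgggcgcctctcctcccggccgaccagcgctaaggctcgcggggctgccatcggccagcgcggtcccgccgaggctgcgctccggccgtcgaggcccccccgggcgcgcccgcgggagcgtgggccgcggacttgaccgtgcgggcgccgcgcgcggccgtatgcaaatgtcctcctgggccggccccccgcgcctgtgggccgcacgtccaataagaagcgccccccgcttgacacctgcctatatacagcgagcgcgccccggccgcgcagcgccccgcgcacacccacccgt
Rarb: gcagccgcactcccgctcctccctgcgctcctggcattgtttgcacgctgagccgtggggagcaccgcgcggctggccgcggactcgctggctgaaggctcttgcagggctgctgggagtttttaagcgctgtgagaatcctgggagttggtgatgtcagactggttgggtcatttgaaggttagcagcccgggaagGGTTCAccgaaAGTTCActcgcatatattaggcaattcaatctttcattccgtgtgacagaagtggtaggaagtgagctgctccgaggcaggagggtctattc
The Aldh1a2 window is 78.0% G and C, against a mean of 53.8% over all promoters, and holds no such pair. The Rarb window is 57.7% G and C and holds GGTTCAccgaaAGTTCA, 53 to 37 bases before the start. The pair is rare, being present in 32 of 32851 promoters (0.0974%). Of the 9 genes, 6 were in the table, with 9 promoters, and the Rarb window shown was the one that held the pair. Rdh10, Aldh1a3 and Crabp2 were not among them. A match in letters is a description and no evidence of binding.

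Aldh1a1 and Aldh1a3 encode the sister enzymes that also turn retinaldehyde into retinoic acid. They did not share one pattern: Aldh1a1 was bright and overlapped between genotypes, and Aldh1a3 was dim and, by 2 of its 3 probe sets, lower in every knockout array. The Aldh1a1 signal was 1656, 2425 and 3348 in heterozygous arrays and 2755, 2119 and 2796 in knockout arrays. All 3 knockout values lay inside the heterozygous range, whose lowest and highest values came from arrays 1 and 5. The means were 2476 ± 847 and 2556 ± 380 (SD, n = 3 each), and the log2 difference was 0.092 ± 0.23 (SE; limma, adjusted p = 0.908). Its 95% interval, from -0.42 to 0.60, spans a fold from 0.749 to 1.52, and without heterozygous array 1 the difference was -0.17. It was also -0.11 after centring each array on its median, which lowered the differences of all probe sets by the same amount. Aldh1a1 has a close mouse paralog, Aldh1a7, and cross-hybridisation between their probes was not tested.

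Aldh1a3 was read by 3 probe sets. By the brightest the signal was 89.9, 121 and 116 in heterozygous arrays and 58.8, 41.2 and 77.1 in knockout arrays. Every knockout array was lower than every heterozygous one, though the nearest values, from heterozygous array 1 and knockout array 6, were 12.8 apart, less than the range within either group. The log2 difference was -0.76 ± 0.27 (SE, n = 3 each; 95% interval -1.36 to -0.15), with a limma p of 0.0191 and an adjusted p of 0.373. The next, at 65.0 ± 14.3 and 46.0 ± 14.1 (SD, n = 3 each), gave -0.40 ± 0.28 (SE; limma, adjusted p = 0.625), and its groups overlapped. The third was below the filter at 34.7, 24.3 and 33.2 against 16.5, 15.5 and 18.3. It was also lower in all knockout arrays and was not tested. The 3 probe sets had the same sign, and neither of the tested ones passed the threshold.

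Rdh10 encodes the retinol dehydrogenase that supplies retinaldehyde to these enzymes in the embryo. It overlapped between genotypes by both of its probe sets. By the brighter of them the signal was 635, 764 and 767 in heterozygous arrays and 642, 668 and 789 in knockout arrays, and knockout array 6 was the highest of all 6. This was a log2 difference of -0.045 ± 0.17 (SE, n = 3 each; 95% interval -0.42 to 0.33; limma, adjusted p = 0.938). The dimmer probe set had means of 261 ± 77.1 and 240.2 ± 39.2 (SD, n = 3 each) and differed by -0.085 ± 0.26 in log2 (SE; limma, adjusted p = 0.925). Without knockout array 4 this second value was 0.045, and without heterozygous array 5 it was 0.086.

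Dhrs3 encodes the reductase that turns retinaldehyde back into retinol, and its transcription is induced by retinoic acid. Its signal was 3213, 4257 and 3561 in heterozygous arrays and 2767, 2866 and 3400 in knockout arrays. Knockout arrays 2 and 4 lay under all heterozygous arrays, and knockout array 6 lay above heterozygous array 1. The means were 3677 ± 531 and 3011 ± 341 (SD, n = 3 each). The log2 difference of -0.28 ± 0.13 (SE; 95% interval -0.58 to 0.012) had a limma p of 0.0584 and an adjusted p of 0.443, and it was lower in every alternative run, from -0.48 to -0.17.

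Cyp26b1 encodes a P450 enzyme that oxidises retinoic acid for removal. It was dim and scattered, at 27.6, 11.98 and 43.2 in heterozygous arrays and 61.7, 70.7 and 13.3 in knockout arrays. Knockout arrays 2 and 4 were above all heterozygous arrays and knockout array 6 was near the lowest of them. Its mean lay under the filter, so it was not tested.

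Crabp1 and Crabp2 encode small cytoplasmic proteins that bind retinoic acid, Crabp2 being the one that hands it to the receptor in the nucleus. Crabp1 was between 1.25 and 11.0 in all arrays, under the filter. Crabp2 was 232.8, 263 and 361 in heterozygous arrays and 185, 244 and 124 in knockout arrays. Knockout arrays 2 and 6 lay under every heterozygous array, and knockout array 4 lay between heterozygous arrays 1 and 3. In log2 this was -0.61 ± 0.28 (SE, n = 3 each), with a limma p of 0.0515 and an adjusted p of 0.429. It was -0.38 without knockout array 6, the array that alone carried Xist, and -0.82 without knockout array 4.

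Rarb encodes the beta receptor, a gene that retinoic acid induces through the repeat printed with its promoter. Its signal was 443, 356 and 432 in heterozygous arrays and 425, 401 and 453 in knockout arrays. The groups overlapped throughout, with the lowest value in heterozygous array 3 and the highest in knockout array 6. The means were 410 ± 47.2 and 426 ± 25.9 (SD, n = 3 each), and the log2 difference was 0.058 ± 0.18 (SE; limma, adjusted p = 0.926). The 95% interval, from -0.35 to 0.46, covers a fold from 0.786 to 1.38. The sign turned to -0.14 after centring each array on its median, a shift common to all probe sets.

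**Figure D2:**
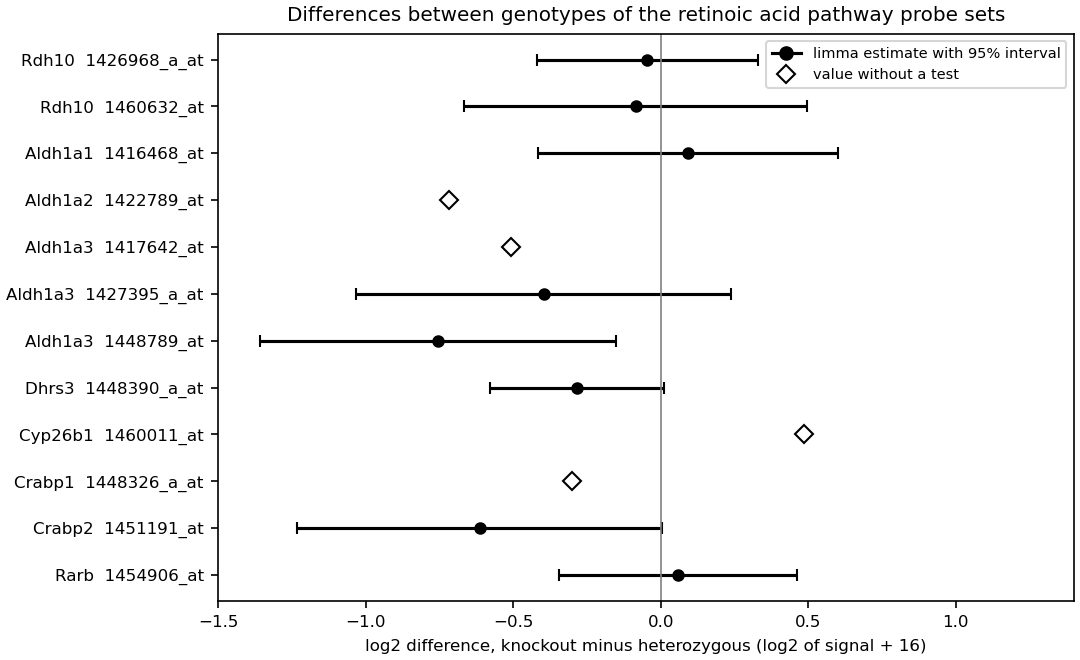
Log2 difference, knockout minus heterozygous, of the 12 probe sets of the 9 genes. Bars are 95% intervals from limma (n = 3 each), and diamonds are values without a test, namely Aldh1a2, chosen by its difference, and the 3 dim probe sets. Of the 8 intervals, that of the brightest Aldh1a3 probe set is the one that lies wholly under 0.

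Leaving Aldh1a2 aside, 8 probe sets of 6 genes were tested, and none was called (0 of 8) at an adjusted p of 0.05, with adjusted p between 0.373 and 0.938 in limma. At an unadjusted limma p under 0.05, 1 was lower and 0 were higher, against 2.48% lower and 9.20% higher among all 27022 probe sets tested. Groups did not overlap, with the knockout lower, for 1 of the 8, where the background was 5.97%, and with the knockout higher for 0, where it was 11.2%. Of the 8, 6 were lower and 2 higher, beside 50.5% and 49.5% of all probe sets, and their median log2 difference was -0.18 against -0.0040 for all probe sets. Those shares come from few probe sets, some of which read the same gene. The background of all probe sets also holds those with no single gene symbol, whose median difference was 0.36, against -0.027 for those with 1 symbol. Counted by gene at the brightest probe set, 3.23% were lower and 3.21% higher at that unadjusted limma p. By the same count, 7.04% were lower and 6.07% higher without overlap, and 56.9% had a difference under 0.

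A further 75 genes of retinoid uptake, conversion, breakdown, binding, reception and response were listed to set beside the 9, also with earlier results known. Of these, 65 were named on the array and 40 were tested, each by its brightest probe set. None of the 40 was called, the smallest adjusted limma p being 0.349, while 0.00805% of all 12421 genes were. The log2 difference was lower than 0 for 28 of them (70%) and higher for 12, compared with 56.9% and 43.1% of all genes, and the median was -0.18 compared with -0.038. At an unadjusted limma p under 0.05, 4 were lower and 1 higher, against 3.23% and 3.21% of all genes. Groups did not overlap for 5 lower genes (12.5%) and 2 higher ones (5%), against 7.04% and 6.07%. Nrip1 and Stra6 stand in 2 of the role lists below and count once here.

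The proteins that take up and carry retinol and its esters were read by 7 tested genes, of which 3 were higher and 4 lower, with a median of -0.027. The sign of that median depended on the setting, with values from -0.23 to 0.12 when the processing was varied. Lrp2, the megalin receptor that takes up retinol bound to its plasma carrier, was the brightest in this group. By its brightest probe set it was 4282, 3904 and 3695 in heterozygous arrays and 4154, 4863 and 4154 in knockout arrays, overlapping, a log2 difference of 0.15 ± 0.10 (SE; limma, adjusted p = 0.624). The sign turned to -0.053 after centring each array on its median, which shifted all probe sets alike. Lpl, a lipoprotein lipase that also releases retinol from its esters, was 204, 255 and 195 in heterozygous arrays and 247, 107 and 156 in knockout arrays. Its groups overlapped too, knockout array 2 lying inside the heterozygous range, and it differed by -0.39 ± 0.29 in log2 (SE; limma, adjusted p = 0.640).

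Among the other dehydrogenases and oxidases of retinol and retinaldehyde, 4 of 11 tested genes were higher and 7 lower, with a median of -0.18. Adh1, an alcohol dehydrogenase that oxidises retinol, was 149, 284 and 162 in heterozygous arrays and 77.3, 20.05 and 126 in knockout arrays. The groups did not overlap, and knockout array 4 was far under the others. This was a log2 difference of -1.40 ± 0.47 (SE; limma, adjusted p = 0.371), and -0.84 without knockout array 4. Aox1, an aldehyde oxidase that accepts retinaldehyde among other substrates, ran the other way, at 1262, 964 and 1141 in heterozygous arrays and 1589, 2433 and 1349 in knockout arrays. Every knockout array was higher, knockout array 4 most of all. Their log2 difference was 0.63 ± 0.21 (SE; limma, adjusted p = 0.371) and 0.39 without knockout array 4. Aldh1a7, named after its values were seen, was 76.3, 190 and 174 against 193, 228 and 272, higher in each knockout array by a narrow margin (limma, adjusted p = 0.449). The brightest gene of the group, Adh5, which mainly handles formaldehyde, differed by -0.18 (limma, adjusted p = 0.524).

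Of 4 listed enzymes that break retinoic acid down, 3 were named on the array and 1 of these was bright enough to be tested. It was Cyp2s1, a P450 that can take retinoic acid as a substrate, at 114, 74.8 and 81.0 in heterozygous arrays and 75.9, 78.4 and 53.7 in knockout arrays, overlapping (log2 difference -0.31; limma, adjusted p = 0.689). Cyp26a1, the best known target of retinoic acid in this family, lay between 1.13 and 18.9 on all arrays, under the filter. Its promoter at chr19:37697558-37697857 (+ strand, GRCm38.p6) was the other one among these pathway genes to hold the direct repeat, on the opposite strand as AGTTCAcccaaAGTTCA, 32 to 16 bases before the start. It was the match among the 53 of these genes found in the promoter table.

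The receptors, their partners and the proteins that pass ligand to them included 12 tested genes, of which 3 were higher and 9 lower, with a median of -0.16. Fabp5, a fatty acid binding protein that can also carry retinoic acid to a different nuclear receptor, PPAR delta, had the smallest p of the 40 genes. By its brighter probe set it was 4035, 2279 and 1930 in heterozygous arrays and 1254, 941 and 1067 in knockout arrays. All knockout arrays were lower, and heterozygous array 1 was well above the other 2. The log2 difference was -1.26 ± 0.25 (SE, n = 3 each), with a limma p of 5.0e-04 and an adjusted p of 0.349, and its other probe set gave -1.01, also without overlap. Without heterozygous array 1 it was -0.95.

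Nr2f1, an orphan nuclear receptor that can occupy retinoic acid response elements, was 897, 1506 and 1745 in heterozygous arrays and 646, 536 and 849 in knockout arrays. The groups did not overlap, though heterozygous array 1 and knockout array 6 were close. Nr2f1 differed by -0.98 ± 0.26 in log2 (SE; limma, adjusted p = 0.371). Among the receptors, named after their values were seen, Rxra gave -0.19, Rxrb -0.10 and Rarg 0.00052, all overlapping. Rara, also singled out afterwards, was under the filter at 26.4, 28.7 and 21.4 against 10.2, 12.4 and 14.7, lower in each knockout array and not tested. The coactivator Ncoa3, the brightest of the group, gave 0.14. Its sign turned to -0.059 after centring on the array median, by the same common shift.

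**Figure D3:**
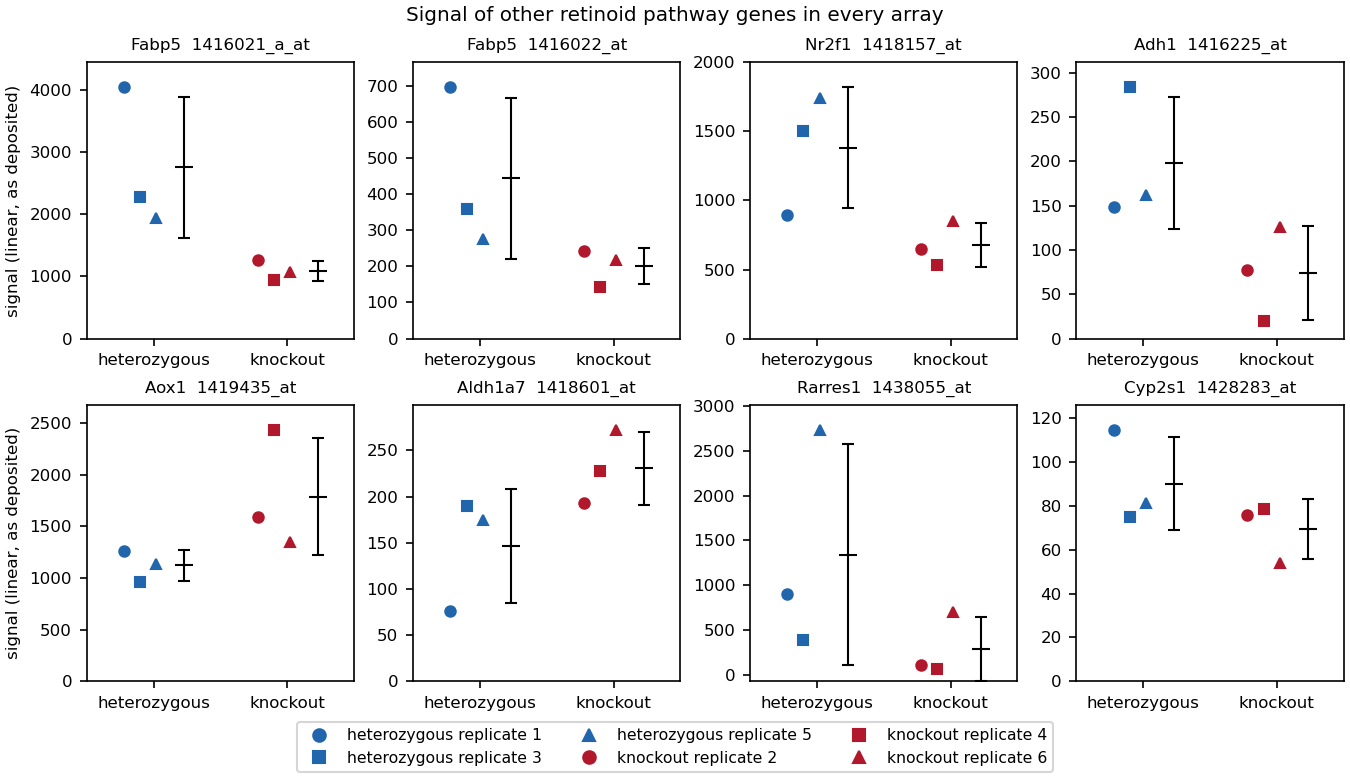
Signal of 7 further retinoid genes in each array by 8 probe sets, on linear scales that differ between panels. Points are arrays and bars the group mean with SD (n = 3). Fabp5 by both probe sets, Nr2f1 and Adh1 are lower, and Aox1 and Aldh1a7 higher, in every knockout array, while Rarres1 and Cyp2s1 overlap.

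Genes known to respond to retinoic acid were tested in 11 cases, with 3 higher and 8 lower and a median of -0.18. Rarres1, a membrane protein first found as a retinoid-induced transcript, was 903, 390 and 2736 in heterozygous arrays and 111, 63.4 and 702 in knockout arrays. The groups overlapped, since knockout array 6 was above heterozygous array 3, and the highest value came from heterozygous array 5. Rarres1 gave a log2 difference of -2.38 ± 0.82 (SE; limma, adjusted p = 0.371), and it ranged from -3.33 without knockout array 6 to -1.66 without heterozygous array 5. Heterozygous array 5 also had the highest summed signal of root, spindle and outer sulcus cell markers, 24235 against 11276 to 15863 in the rest, and the highest Slc26a4 signal, and the part of this in the Rarres1 values was not tested. Meis2, a homeobox partner of HOX proteins, was 605, 657 and 574 against 422, 342 and 579 by its brightest probe set (log2 difference -0.47; limma, adjusted p = 0.433). Its probe sets disagreed, another of them being 1.17 higher. The brightest of these genes, the corepressor Nrip1, gave -0.20 by its brightest probe set and -0.77 to 0.86 by its other tested ones.

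**Figure D4:**
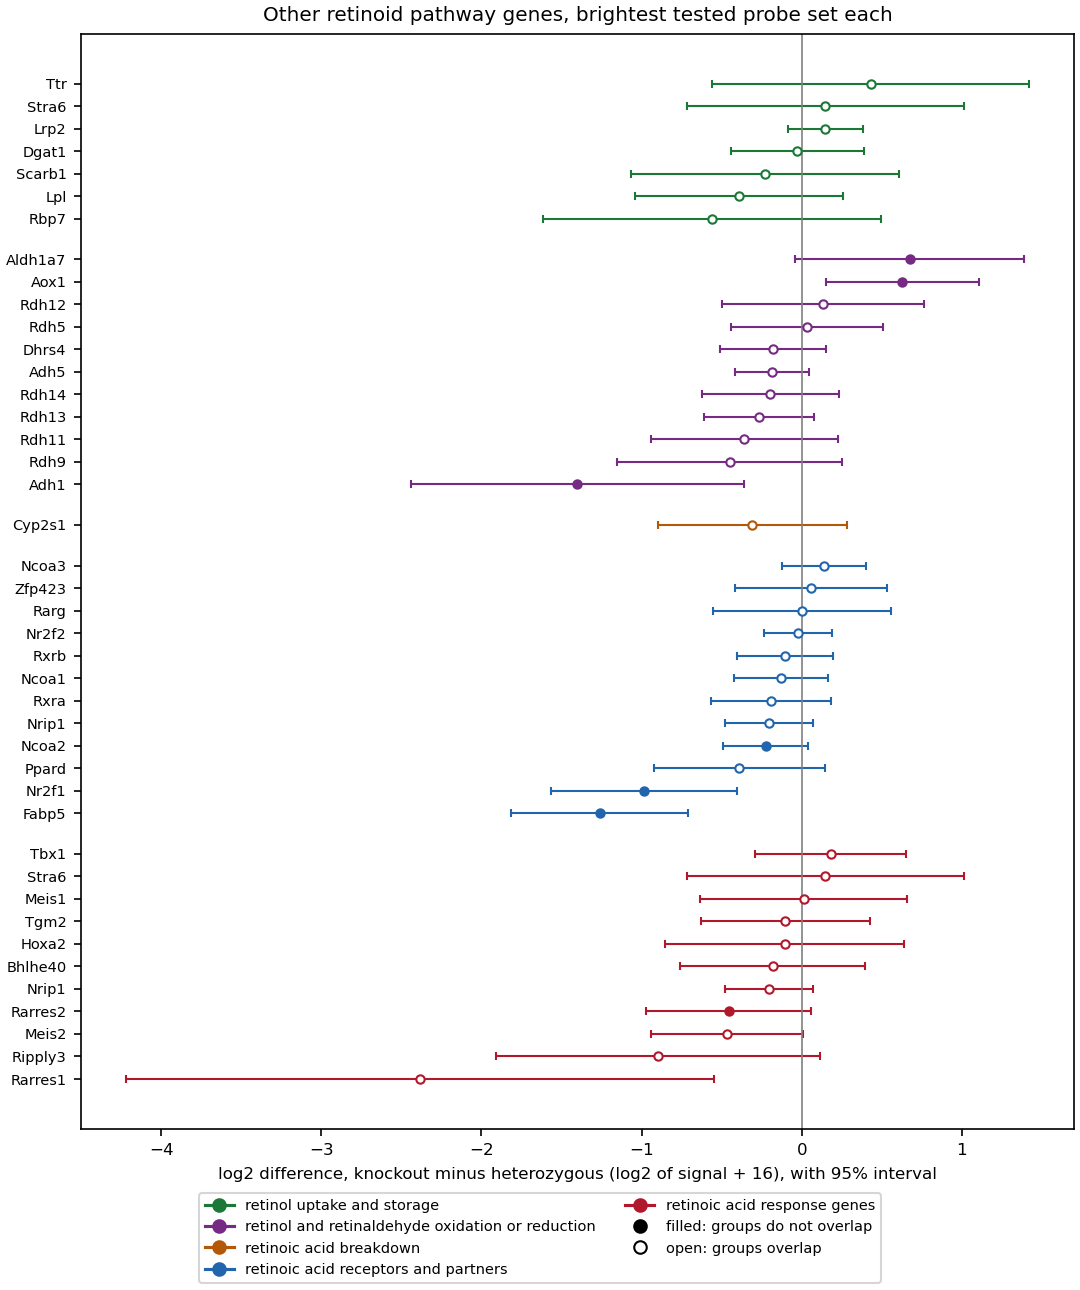
Log2 difference, knockout minus heterozygous, of the 40 further retinoid genes tested, by role. Each point is a gene by its brightest probe set, with its 95% interval from limma (n = 3 each), filled where the groups do not overlap. Points lie on either side of 0 in every role with more than 1 gene, and Rarres1 and Adh1 lie farthest to the left.

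Marker lists of other cell types, chosen with earlier results of these data known, were read beside the Aldh1a2 values. Of 10 tested markers of osteoclasts, osteoblasts and cartilage, 9 were higher in the knockout arrays, 7 of them without overlap, against the same 6.07% of all genes. The median of the list was 0.97, and its summed signal was 9869, 10099 and 12101 in heterozygous arrays and 15310, 19739 and 17643 in knockout arrays. Knockout array 4, with the highest of these sums, had the lowest Aldh1a2 signal. That array, which stood apart above, also had the lowest sums of endothelial (2942) and pericyte (7672) markers and the highest of marginal cell markers (52420). Mesothelial and leptomeningeal cells, which express Aldh1a2 elsewhere in the body, had 5 of 13 listed markers bright enough to be tested, 3 higher and 2 lower. Their summed signal was 18388, 18358 and 18664 in heterozygous arrays and 19732, 22201 and 19007 in knockout arrays, and the median of the list was 0.070. Most of that sum was the prostaglandin synthase Ptgds, at 10024 to 10669 in heterozygous and 10701 to 14082 in knockout arrays, while the sulfate carrier Slc13a4 was 3443 to 3941 and 3245 to 3593, both named after their values were seen. All 5 defining mesothelial markers had means under the filter, with Upk3b between 3.12 and 17.7, Upk1b between 0.609 and 21.6, Lrrn4 between 0.976 and 6.89 and Wt1 between 10.3 and 38.1. Mesothelin (Msln) was at 40.3 to 56.8 in heterozygous arrays and 4.97 to 59.3 in knockout arrays. Sums of strial intermediate, marginal and basal cell markers overlapped between genotypes, as did those of macrophages, fibrocytes, endothelial cells and pericytes. By gene, 11 of 13 intermediate, 8 of 9 endothelial and 8 of 10 pericyte markers were lower, beside 56.9% of all genes. Of 13 macrophage markers 11 were higher, and the medians were, in this order, -0.11, -0.29, -0.22 and 0.15. Among these, 1 of 13 intermediate and 2 of 10 pericyte markers were lower without overlap, where the share of all genes was 7.04%. In the other direction, 1 of 13 intermediate and 2 of 13 macrophage markers were higher, where it was 6.07%. Also without overlap, 1 marginal and 1 fibrocyte marker were lower, and 1 marginal, 1 basal and 1 fibrocyte marker were higher. Marginal, basal and fibrocyte markers had 6, 3 and 6 lower and 3, 5 and 5 higher. Root, spindle and outer sulcus markers, which include Slc26a4, had 6 of 8 lower and 2 higher, 1 each way without overlap. Their median was -0.46, and -0.0044 without heterozygous array 5. All 3 tested markers of hair cells and neurons and the 2 of erythrocytes were lower, with medians of -0.75 and -0.55. Reissner membrane markers had 2 lower and 3 higher, and Schwann cell markers 2 and 2, each with 1 higher without overlap. Sums of these lists overlapped too. The part of the cells of any of these marker lists in the Aldh1a2 difference was not tested.

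The genes whose signal followed that of Aldh1a2 most closely over the 6 arrays were Fgf13, Capn5, Pfkp, Zfp35 and Hs3st6, with Pearson's r of log2 values from 0.993 to 0.995. With 3 arrays on each level, such values are reached by genes that separate the genotypes, and they describe these arrays only. Fgf13, an intracellular relative of the fibroblast growth factors, had r = 0.995 and was 585.7, 675 and 526 in heterozygous arrays and 307, 236 and 312 in knockout arrays. Like Aldh1a2, it was highest in heterozygous array 3 and lowest in knockout array 4. When the group means were removed, the closest genes over the 6 arrays were Pard6g, Mrpl23, Igbp1, Hap1 and Tmem231, with r from 0.992 to 0.998, none of them shared with the first 5. Pard6g, a cell polarity protein, had 836 ± 85.5 and 787 ± 102 (SD, n = 3 each), so it followed Aldh1a2 within genotypes and overlapped between them.

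**Figure D5:**
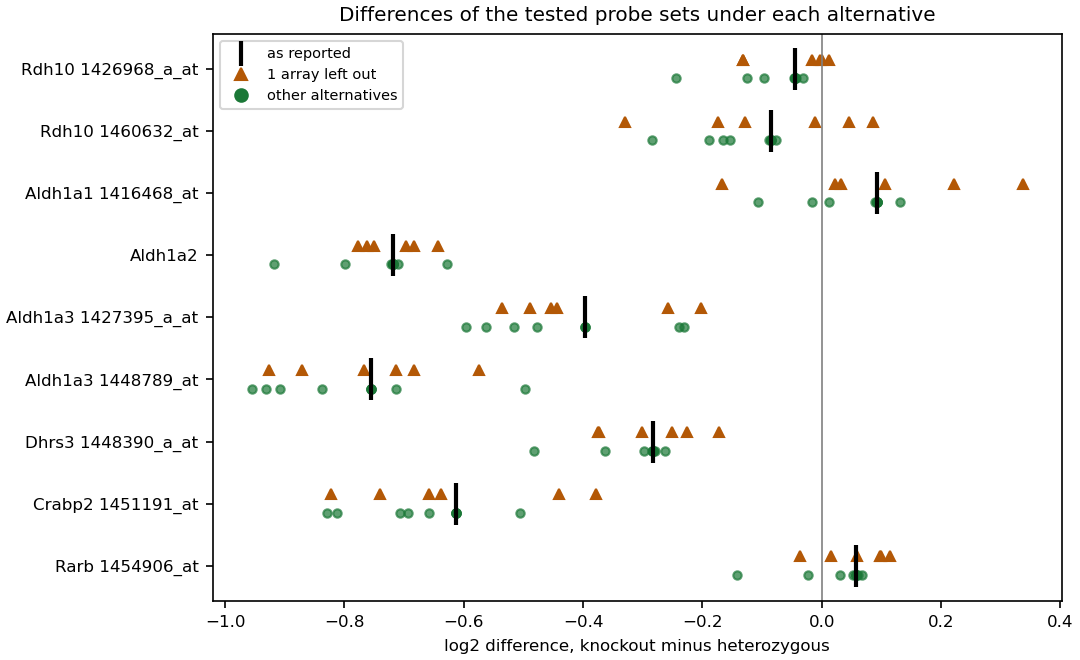
Log2 difference of each tested probe set of the 9 genes under every alternative setting and with each array left out. Black bars are the values as reported, triangles have 1 array left out, circles are the other settings, and the vertical line marks 0. All points of Aldh1a2, Aldh1a3, Dhrs3 and Crabp2 lie under 0, and those of Aldh1a1, Rdh10 and Rarb fall on both sides. For Aldh1a2, chosen by its difference, leaving out an array could not turn the sign.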

How the data were processed

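Per the labels' protocols, RNA was extracted with a Qiagen kit, amplified and labelled by NuGEN Ovation, and hybridised to Affymetrix Mouse 430 2.0 arrays. The authors deposited linear signal intensity. The submitters' processing notes name GCOS, without a version. Each array's trimmed mean was 500.002, a scaling that was kept. Precision is limited by the number of arrays.

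From these, 64 control probe sets were left out, and log2(signal + 16) was modelled by limma 3.58.1 under R 4.3.3, with lmFit and a two-sided trended eBayes, after removing probe sets whose mean signal lay under the 40th percentile, with Benjamini-Hochberg adjustment over 27022 probe sets. The offset understates changes of dim genes. Fits were tested on simulated data. Probe sets were named from the platform's annotation: 34945 had 1 symbol, 932 several and 9160 none. Members and lists were chosen with earlier results of these data known. The text names all members, the brightest gene and the 2 smallest p of each retinoid list, the 5 genes most like Aldh1a2 in each of 2 ways, and check genes. Alternatives varied offset, scaling, filter, variance model and arrays.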

Additional observations from a re-analysis of the deposited data

How the results depend on the processing

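Of the tested probe sets of the genes other than Aldh1a2, and of the further retinoid genes, 0 were called under any of the 17 alternatives run. Aldh1a2, which has no test, was chosen for lower signal in every knockout array, so leaving out an array could not turn its sign. It was lower in all 17, and moved from -0.72 to -0.92 when each array was centred on the median of its log2 values. That setting moved the median of all probe sets to -0.20 and the share higher in knockout arrays from 49.5% to 25.6%. That share was 42.6% after quantile normalization and 37.8% after centring on the median of probe sets with 1 symbol. Aldh1a3, Dhrs3 and Crabp2 were also lower wherever they were tested. Aldh1a1 turned to -0.11 with array median centring, -0.016 with array weights and -0.17 without heterozygous replicate 1 (-0.17 to 0.34 with single arrays left out). Rarb turned to -0.14 with array median centring, -0.023 with centring on named probe sets and -0.037 without heterozygous replicate 3 (-0.037 to 0.11). The brighter Rdh10 probe set turned to 0.012 without knockout replicate 2 (-0.13 to 0.012), and the dimmer one to 0.045 without knockout replicate 4 and 0.086 without heterozygous replicate 5 (-0.33 to 0.086). The 1 probe set called on the whole array became 3 with quantile normalization, 3 with array median centring, 0 with no filter, 0 with a filter at the 60th percentile, 23 with array weights and 11 with 1 probe set per gene. With single arrays left out it ranged from 0 to 13, the 13 being without knockout replicate 4, with 2 without heterozygous replicate 1 and 0 when heterozygous replicate 5, or either of knockout replicates 2 and 6, was dropped. The cause was not tested. No paired analysis was run, because the groups share no replicate number by which to pair arrays. Whether arrays with neighbouring numbers form pairs or batches is not stated in the sample titles.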
